A study of Homo sapiens with 6 samples.

Results

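The comparison described here sets cells in which a short hairpin RNA (shRNA) against p63 was switched on against cells in which p53 was stabilised with Nutlin-3. It takes 4 of the 6 arrays of the series, chosen by their titles: 2 arrays labelled shp63 ON and 2 labelled shp63 OFF Nutlin-3 treatment. All 6 arrays come from H226, an established human lung squamous carcinoma line that here carries a doxycycline-inducible p63 shRNA. To induce the hairpin, shp63 ON cultures were kept in doxycycline at 1 µg/mL over 48 h. The Nutlin-3 cultures, in which the hairpin stayed off, were exposed to the drug at 10 µM over 12 h. The remaining 2 arrays are untreated control cells with the shRNA off, which enter the estimate of spread and show the starting level of each gene but not the mean difference. All groups grew in RPMI with fetal calf serum. Doxycycline was given only to the shp63 ON cells, the treatment times differ, and there is no array with another shRNA, so effects of the knockdown, of doxycycline, of hairpin expression and of time cannot be told apart. The gene targeted by the shRNA was not analysed here, so the knockdown itself is known from the labels alone.

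Both treatments act on the p53 family of transcription factors. p53 is held low by MDM2, a ubiquitin ligase that binds it, and Nutlin-3 occupies the p53-binding pocket of MDM2, so that p53 accumulates and switches on genes of cell cycle arrest, DNA repair and cell death. p63 recognises DNA elements much like those of p53, and maintains the basal layer of stratified epithelia as well as many squamous carcinomas. When a cell stops cycling, 2 large gene programmes fall: the E2F-driven genes of DNA replication and the later genes of mitosis, many of which carry a cell cycle homology region (CHR) in their promoters.

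Values are log2 intensities, so a difference of 1 is a doubling. Differences are given as shp63 ON minus Nutlin-3 with limma's standard error (SE). A gene was called when its Benjamini-Hochberg adjusted p over all 18404 genes was under 0.05, and "higher" and "lower" below mean called in shp63 ON relative to Nutlin-3. Across genes, the 2 shp63 ON arrays correlated with each other at r = 0.9974 and the 2 Nutlin-3 arrays at 0.9971, while pairs taken 1 from each of these groups gave 0.9751 to 0.9767. The labels do not say that the 2 arrays of a group came from separate cultures, so p-values may measure technical spread only. The number of arrays limits the precision, and an exact two-sided permutation test of 2 arrays against 2 cannot go below p = 0.333. Of the 18404 genes, 9481 were called (51.5%): 5057 higher (27.5%) and 4424 lower (24%). These shares over all genes are the background given for the counts below, but the shares also differed with the level of the gene. At least 1.5-fold differences were fewer, with 1099 genes higher (5.97%) and 1313 lower (7.13%). At least 4-fold, 8 genes were higher and 37 lower.

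The direction of small differences moved with the level of the gene, as the plot of median difference by level shows. Among the 3167 genes with a mean level of 6 to 7, the median difference was 0.247, with 1601 higher and 466 lower. Among the 2950 genes at 8 to 9 it was -0.117, with 585 higher and 1172 lower. Among the 2093 genes at 9 to 10 it was -0.132, with 325 higher and 864 lower. After cyclic loess normalization, which removes such a trend, the median at 6 to 7 was 0.047, and over all genes 3958 were higher (21.5%) and 4334 lower (23.5%). The part of this trend in the small differences was not tested further.

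**Figure D1:**
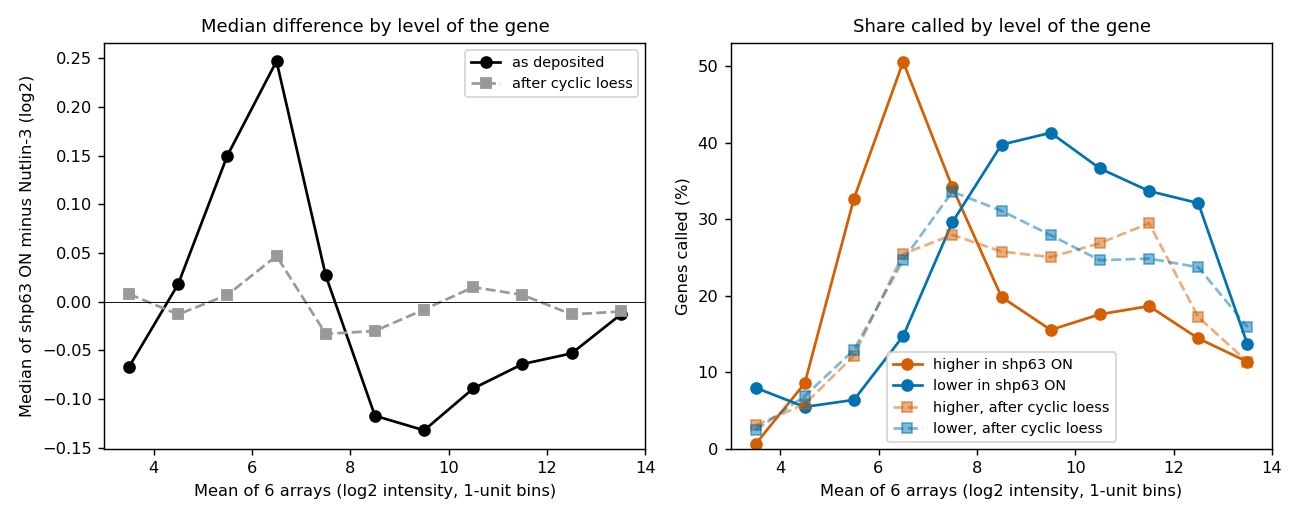
Differences by gene level. The left panel plots the median of shp63 ON minus Nutlin-3 (log2) against the mean of 6 arrays (log2 intensity) in bins of 1 unit, as deposited (black) and after cyclic loess (grey). The right panel plots the percentage of genes higher (orange) or lower (blue) in shp63 ON in the same bins, before (solid) and after (dashed) cyclic loess. The median peaks at 0.247 in the bin from 6 to 7 and is flattened to 0.047 there by cyclic loess.

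Markers of the squamous type that the label gives were high in part. In the control arrays KRT5, a basal keratin, read 12.23 and 12.33, its partner KRT14 read 10.40 and 10.36, the laminin chain LAMB3 read 11.38 and 11.51, the hemidesmosome integrin ITGB4 read 12.03 and 12.09 and the desmosomal cadherin DSG3 read 9.03 and 9.12. These lie above the median level over genes, 7.302, and all but DSG3 lie above the 90th percentile, 10.086. Of the 15 measured basal keratin and adhesion genes 13 lay above the median in control, with KRT15 (6.76 and 6.74) and NGFR (6.99 and 7.12) below it, but of 41 squamous differentiation genes only 14 did. Of 9 mesothelial markers 5 lay above the median, among them KRT18 (13.11 and 13.13) and KRT7 (12.98 and 13.06), which simple epithelia also express, and mesothelin, MSLN (9.77 and 9.82). Of 13 leukocyte markers 3 lay above it, CD68 (9.27 and 9.30), TYROBP (7.86 and 7.76) and LAPTM5 (7.47 and 7.53), while PTPRC, which defines leukocytes, read 4.24 to 4.48 over the 6 arrays. Of 13 fibroblast markers 3 lay above it, FAP (8.72 and 8.93), MMP2 (8.34 and 8.37) and COL1A1 (8.24 and 8.29), while the matrix gene DCN read 3.94 to 4.05. PTPRC and DCN lie below the 10th percentile, 4.907.

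In all 15 of the genes lowest in shp63 ON relative to Nutlin-3, the Nutlin-3 arrays lay above control and the shp63 ON arrays below it. In bulk RNA, fewer cells of a type and less RNA per cell cannot be told apart. IL1B, which encodes the inflammatory cytokine interleukin 1 beta, read 8.76 and 9.04 in control, 10.04 and 9.94 with Nutlin-3 and 5.82 and 5.83 in shp63 ON. It was 18-fold lower in shp63 ON (difference -4.17, SE 0.096, adjusted p = 1.0e-06). The shp63 ON arrays lay below both control arrays and the Nutlin-3 arrays above them. RGS2, a GTPase-activating protein that shortens signalling by Gq-coupled receptors, read 9.65 and 9.76 in control, 11.54 and 11.48 with Nutlin-3 and 8.003 and 7.85 in shp63 ON. The 2 treatments thus stood on opposite sides of control, 12-fold apart (difference -3.58, SE 0.078, adjusted p = 1.0e-06). ABCA12, the lipid transporter of the epidermal barrier, read 8.41 and 8.49 in control, 11.21 and 11.17 with Nutlin-3 and 7.58 and 7.63 in shp63 ON. Here the distance of 12-fold (difference -3.58, SE 0.065, adjusted p = 7.7e-07) came mostly from the high Nutlin-3 arrays.

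S100A2, a calcium-binding protein of basal epithelial cells, read 8.81 and 8.82 in control, 10.29 and 10.002 with Nutlin-3 and 6.86 and 6.51 in shp63 ON. Its 11-fold lower level in shp63 ON (difference -3.46, SE 0.130, adjusted p = 4.9e-06) again put control in the middle. FEZ1, a kinesin adaptor of axonal transport, read 8.90 and 9.03 in control, 9.65 and 9.57 with Nutlin-3 and 6.39 and 6.44 in shp63 ON (difference -3.20, SE 0.072, adjusted p = 1.0e-06). IL1A, which encodes interleukin 1 alpha, read 11.89 and 11.88 in control, 12.24 and 12.30 with Nutlin-3 and 9.15 and 9.33 in shp63 ON (difference -3.03, SE 0.076, adjusted p = 1.4e-06). FEZ1 and IL1A differed mainly through low shp63 ON arrays, with Nutlin-3 less than 1 log2 unit from control.

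The other genes among the 15 lowest lay between -2.77 and -2.50. They included IKBIP (-2.77 ± 0.142, SE), DSG3 (-2.76 ± 0.064), the axonemal dynein gene DNAI3 (-2.76 ± 0.073), the phospholipid transfer protein gene PLTP (-2.62 ± 0.067), the collagenase gene MMP1 (-2.61 ± 0.098), the activin antagonist gene FST (-2.56 ± 0.088), ZNF385A (-2.53 ± 0.078) and the potassium channel gene KCNJ15 (-2.50 ± 0.122). Of these, DNAI3 read 6.60 and 6.70 in control, 9.14 and 9.04 with Nutlin-3 and 6.37 and 6.29 in shp63 ON, so nearly the whole difference lay between Nutlin-3 and the other groups. FST read 9.07 and 9.32 in control, 9.80 and 9.84 with Nutlin-3 and 7.26 and 7.26 in shp63 ON, with the larger step between control and shp63 ON.

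Among the 15 genes highest in shp63 ON, the Nutlin-3 mean was within 1 log2 unit of control for all but FAM111B. ANKRD22, an ankyrin repeat gene, read 6.41 and 6.34 in control, 5.63 and 5.86 with Nutlin-3 and 9.28 and 9.58 in shp63 ON, 12.9-fold higher (difference 3.69, SE 0.114, adjusted p = 2.8e-06). The concentrative nucleoside transporter gene SLC28A3 read 6.59 and 6.86 in control, 6.53 and 6.25 with Nutlin-3 and 9.58 and 9.26 in shp63 ON (difference 3.03, SE 0.142, adjusted p = 1.0e-05). In both genes the shp63 ON arrays stood more than 2 log2 units above every other array. TMPRSS11E, a transmembrane serine protease gene of stratified epithelia, read 6.28 and 6.43 in control, 6.62 and 6.61 with Nutlin-3 and 9.82 and 9.40 in shp63 ON (difference 2.99, SE 0.129, adjusted p = 7.7e-06). It has 2 probe sets, and the dimmer one gave a difference of 1.33.

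PEG10, a retrotransposon-derived imprinted gene, read 6.81 and 6.79 in control, 6.41 and 6.25 with Nutlin-3 and 8.90 and 8.88 in shp63 ON (difference 2.56, SE 0.073, adjusted p = 1.9e-06). CENPT, which encodes a DNA-binding kinetochore protein, read 7.41 and 7.44 in control, 7.63 and 7.59 with Nutlin-3 and 9.95 and 9.97 in shp63 ON (difference 2.35, SE 0.061, adjusted p = 1.4e-06). MMP13, the gene of collagenase 3, read 5.47 and 5.25 in control, 5.38 and 5.25 with Nutlin-3 and 7.75 and 7.57 in shp63 ON (difference 2.35, SE 0.101, adjusted p = 7.7e-06). All 3 were high on the shp63 ON arrays alone, with Nutlin-3 within 0.5 of control. FAM111B differed from this pattern: it read 10.51 and 10.47 in control, 6.21 and 5.98 with Nutlin-3 and 8.26 and 8.38 in shp63 ON, so it was below control in both treatments and lowest with Nutlin-3 (difference 2.23, SE 0.089, adjusted p = 5.5e-06). The rest of the 15 highest lay between 1.66 and 2.19: ENOX1 (2.19 ± 0.130, SE), the metalloreductase gene STEAP4 (1.94 ± 0.077), the amino acid transporter gene SLC6A14 (1.85 ± 0.073), the B7-family gene VTCN1 (1.72 ± 0.092), DCLK2 (1.68 ± 0.061), the epithelial ETS factor gene ELF3 (1.67 ± 0.060), the adhesion gene CEACAM6 (1.67 ± 0.199) and PPARGC1A (1.66 ± 0.072), a coactivator of mitochondrial biogenesis. CEACAM6 was the least even of these, with 8.62 and 7.89 on the 2 shp63 ON arrays.

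**Figure D2:**
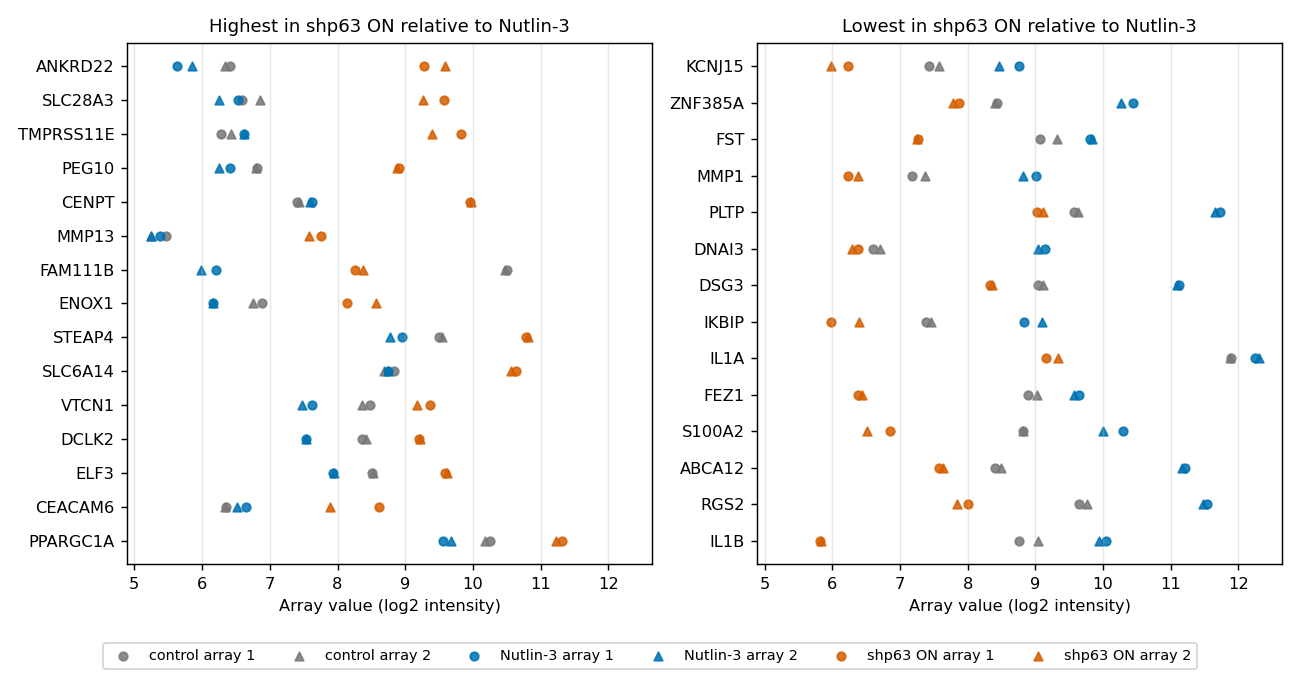
The 15 genes highest (left) and 14 of the 15 lowest (right) in shp63 ON relative to Nutlin-3, with each array's value (log2 intensity) for control (grey), Nutlin-3 (blue) and shp63 ON (orange); circles are array 1 and triangles array 2. In the left panel most blue points lie near or below the grey ones, and in the right panel blue lies to the right of grey and orange to its left, as for RGS2 at 11.54 and 11.48 against 8.003 and 7.85.

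Of the 31 lists with a measured member, the genes that p53 switches on had the median farthest from 0. Of 50 listed feedback and core targets 45 were measured, and 39 were lower in shp63 ON (86.7%, against 24% of all genes), 1 was higher and 5 did not pass, with a median difference of -1.267 against 0.026 over all genes. The mean level over the list was 9.042 and 9.059 on the control arrays, 10.170 and 10.142 with Nutlin-3 and 8.923 and 8.897 in shp63 ON. Both shp63 ON arrays thus lay slightly below control, and both Nutlin-3 arrays more than 1 log2 unit above it. The counts were the same after cyclic loess, with 39 lower and 1 higher. Many members entered the list because p53 is known to induce them, and the list was written with earlier results of these data known, so its direction is a description.

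By role, the negative feedback on p53 differed by more than 1 log2 unit at MDM2, the ubiquitin ligase, which read 11.44 and 11.37 in control, 12.47 and 12.93 with Nutlin-3 and 10.92 and 11.04 in shp63 ON (difference -1.72, SE 0.137, adjusted p = 8.1e-05). PPM1D, the phosphatase WIP1 that resets the response, read 8.57 and 8.57 in control, 9.55 and 9.43 with Nutlin-3 and 8.61 and 8.52 in shp63 ON (difference -0.93, SE 0.071, adjusted p = 6.8e-05), and CCNG1, cyclin G1, read 10.22 and 10.24 in control, 11.24 and 11.18 with Nutlin-3 and 9.998 and 9.96 in shp63 ON (difference -1.23, SE 0.062, adjusted p = 1.3e-05). All 3 were highest with Nutlin-3, and for PPM1D the shp63 ON and control arrays overlapped. CDKN1A, the cyclin-dependent kinase inhibitor p21, read 10.21 and 10.30 in control, 11.85 and 11.84 with Nutlin-3 and 10.38 and 10.39 in shp63 ON. It was 2.75-fold lower in shp63 ON (difference -1.46, SE 0.064, adjusted p = 8.0e-06) and its shp63 ON mean lay 0.13 (SE 0.064) above control.

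The sestrin gene SESN1, a brake on mTORC1, read 8.23 and 8.14 in control, 9.92 and 9.86 with Nutlin-3 and 7.74 and 7.51 in shp63 ON (difference -2.27, SE 0.088, adjusted p = 4.9e-06), and its relative SESN2 read 7.53 and 7.58 in control, 8.66 and 8.70 with Nutlin-3 and 7.61 and 7.51 in shp63 ON (difference -1.12, SE 0.066, adjusted p = 2.4e-05). In shp63 ON, SESN1 read below control and SESN2 overlapped it. KITLG, the ligand of the KIT receptor, read 6.74 and 6.58 in control, 7.93 and 7.78 with Nutlin-3 and 5.77 and 5.58 in shp63 ON (difference -2.18, SE 0.096, adjusted p = 8.3e-06). Both of its shp63 ON arrays lay below control and both Nutlin-3 arrays above it. The secreted cytokine gene GDF15 read 8.67 and 8.80 in control, 11.09 and 11.01 with Nutlin-3 and 9.20 and 9.06 in shp63 ON (difference -1.92, SE 0.080, adjusted p = 6.8e-06), and was one of the targets whose shp63 ON arrays lay a little above control.

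Receptors and effectors of cell death were also lower in shp63 ON: the death receptor genes FAS (-1.62 ± 0.060, SE) and TNFRSF10B (-1.26 ± 0.064), the decoy receptor gene TNFRSF10D (-1.47 ± 0.075), EDA2R (-2.12 ± 0.063), the pore-forming gene BAX (-1.16 ± 0.073) and TP53I3 (-1.69 ± 0.067). BAX read 9.71 and 9.80 in control and 9.77 and 9.86 in shp63 ON, which overlap, and 11.02 and 10.92 with Nutlin-3. Genes of DNA repair and nucleotide supply were lower as well, with XPC, the damage sensor of nucleotide excision repair, at -1.48 ± 0.086, its partner DDB2 at -0.98 ± 0.062, the translesion polymerase gene POLH at -1.95 ± 0.074 and the ribonucleotide reductase subunit gene RRM2B at -1.39 ± 0.067. TIGAR, which lowers glycolytic flux, differed by -1.76 ± 0.073, the ubiquitin ligase gene FBXW7 by -1.87 ± 0.107 and the esterase gene CMBL by -2.14 ± 0.080.

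Not all targets followed. BBC3, which encodes the BH3-only protein PUMA, was the 1 member higher in shp63 ON: it read 7.69 and 7.70 in control, 7.60 and 7.50 with Nutlin-3 and 8.42 and 8.11 in shp63 ON (difference 0.72, SE 0.102, adjusted p = 9.7e-04). Its Nutlin-3 arrays were no higher than control. PMAIP1, which encodes the related protein NOXA, read 8.39 and 8.43 with Nutlin-3 and 8.36 and 8.19 in shp63 ON (difference -0.13, SE 0.089, adjusted p = 0.246), PHLDA3 read 10.07 and 9.99 with Nutlin-3 and 9.93 and 9.79 in shp63 ON (difference -0.17, SE 0.072, adjusted p = 0.0841), and PLK2 read 10.88 and 10.99 with Nutlin-3 and 10.81 and 10.90 in shp63 ON (difference -0.079, SE 0.074, adjusted p = 0.404). None of these 3 passed the test. TP73, the third member of the p53 family, read 7.21 and 7.44 in control, 7.42 and 7.37 with Nutlin-3 and 7.44 and 7.42 in shp63 ON. Its difference of 0.039 (SE 0.084, adjusted p = 0.728) did not pass, and turned to -0.047 after cyclic loess and -0.012 after centring each array on its median.

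Genes of DNA replication and of mitosis differed between the treatments in different ways, and their promoters are shown first. Promoter windows, from 250 bases before to 50 after the start of transcription, were taken from RefSeq on GRCh38.p14 for the 14228 of 18404 genes that matched. The stretches below run 5' to 3' along the gene. Capitals mark the motif match nearest upstream of the start, with up to 30 bases on each side. Any further match within a stretch is left in lower case. The first set shows the CHR core (TTTGAA, or TTCAAA where it lies on the opposite strand) in genes of mitosis. CDK1, TOP2A, MKI67, CCNB2 and PLK1 were lower in shp63 ON and ANLN was higher.
CDK1, chr10:60778140-60778205, plus strand: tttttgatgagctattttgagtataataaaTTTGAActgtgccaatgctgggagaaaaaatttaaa
TOP2A, chr17:40418012-40418077, minus strand: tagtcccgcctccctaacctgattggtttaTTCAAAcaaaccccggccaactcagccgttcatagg
MKI67, chr10:128126424-128126482, minus strand: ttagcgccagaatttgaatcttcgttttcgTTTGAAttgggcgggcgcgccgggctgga
CCNB2, chr15:59105087-59105145, plus strand: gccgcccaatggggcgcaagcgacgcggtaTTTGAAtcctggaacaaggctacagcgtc
PLK1, chr16:23678830-23678888, plus strand: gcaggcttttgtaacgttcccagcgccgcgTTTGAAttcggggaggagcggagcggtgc
ANLN, chr7:36389812-36389861, plus strand: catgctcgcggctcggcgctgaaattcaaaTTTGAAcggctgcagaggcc
The second set shows E2F motifs (TTCCCGC, or GCGGGAA on the opposite strand) in genes of DNA replication. GINS2, CDT1 and MCM3 were higher in shp63 ON and PCNA was lower.
GINS2, chr16:85688955-85689015, minus strand: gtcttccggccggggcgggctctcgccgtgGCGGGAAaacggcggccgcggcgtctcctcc
CDT1, chr16:88803736-88803788, plus strand: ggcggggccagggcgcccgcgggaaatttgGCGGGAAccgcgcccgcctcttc
MCM3, chr6:52284743-52284795, minus strand: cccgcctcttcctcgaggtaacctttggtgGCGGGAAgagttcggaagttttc
PCNA, chr20:5126645-5126711, minus strand: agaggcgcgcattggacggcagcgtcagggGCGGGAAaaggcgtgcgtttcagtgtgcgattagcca
The last shows a match to the p53 half-site consensus in ABCA12, the p53 target with the largest difference.
ABCA12, chr2:215138669-215138738, minus strand: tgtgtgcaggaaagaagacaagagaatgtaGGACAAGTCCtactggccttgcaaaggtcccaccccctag

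Matches on either strand were counted over whole windows. The CHR cores TTTGAA and TTCGAA were present in 29 of the 38 mitosis windows (76.3%), 2 of the 31 replication windows (6.45%) and 13.3% of the windows of all genes tested. The E2F motifs TTCCCGC and TTTCGCGC were present in 17 of 31 replication windows (54.8%), 4 of 38 mitosis windows (10.5%) and 9.65% of the windows of genes tested. CCAAT, the NF-Y box, was found in 28 mitosis windows (73.7%), 17 replication windows (54.8%) and 36.3% of the windows of genes tested. Within the replication list E2F matches were in 7 of 13 windows of higher members (53.8%), 5 of 8 of lower members (62.5%) and 5 of 10 of members that did not pass (50%). AP-1 motifs (TGACTCA or TGAGTCA) were in no mitosis or replication window and in 3.56% of the windows of genes tested. The p53 half-site was in 4 of 36 p53 target windows (11.1%) and 5.95% of the windows of genes tested. A match describes the sequence of the window and does not show binding.

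**Figure D3:**
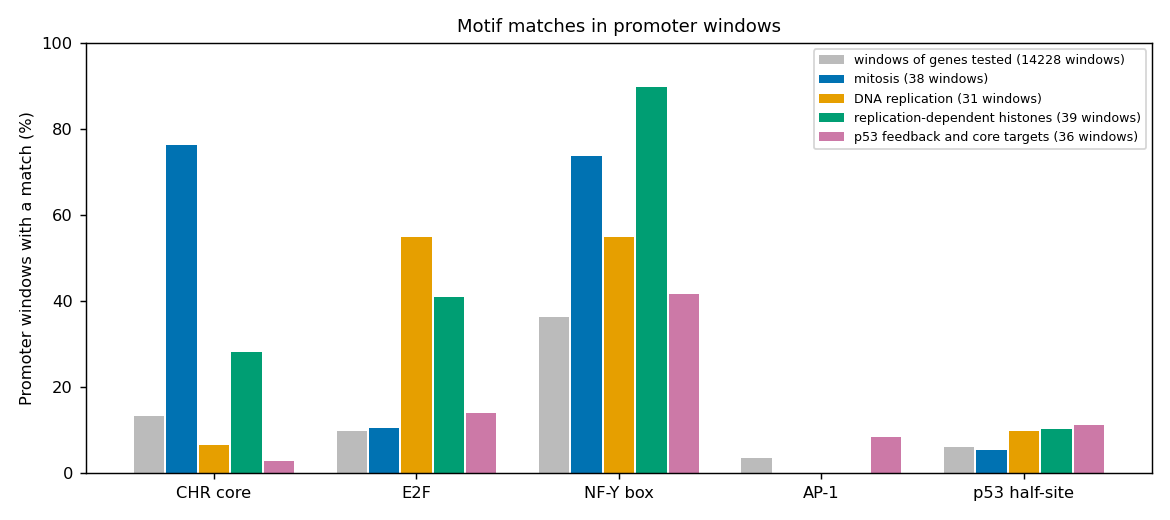
Share of promoter windows (%) with at least 1 match to each motif, for windows of all genes tested (grey), mitosis (blue), DNA replication (orange), replication-dependent histones (green) and p53 targets (pink). CHR cores reach 76.3% of mitosis windows against 13.3% of all, and E2F motifs 54.8% of replication windows against 9.65%.

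Genes of DNA replication were split. Of 37 measured members (38 listed) 16 were higher in shp63 ON (43.2%, background 27.5%), 8 lower (21.6%, background 24%) and 13 did not pass, with a median difference of 0.084 (0.065 to 0.128 with 1 array left out). After cyclic loess 13 were higher and 12 lower. The mean level over the list was 8.485 and 8.543 on the control arrays, 7.250 and 7.169 with Nutlin-3 and 7.252 and 7.198 in shp63 ON. The 2 treatments thus stood at the same mean, more than 1 log2 unit below control, while single members differed between them.

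The members higher in shp63 ON included genes that mark and open replication origins. CDC6, which loads the replicative helicase, read 9.89 and 9.83 in control, 6.72 and 6.08 with Nutlin-3 and 7.80 and 7.16 in shp63 ON (difference 1.08, SE 0.241, adjusted p = 0.00743). The arrays of each treated group were far apart, and the test without moderation did not call it. The helicase subunit gene MCM2 read 8.38 and 8.37 in control, 6.90 and 6.80 with Nutlin-3 and 7.60 and 7.68 in shp63 ON (difference 0.79, SE 0.067, adjusted p = 1.1e-04), MCM5 read 9.43 and 9.47 in control, 7.38 and 7.21 with Nutlin-3 and 7.85 and 7.85 in shp63 ON (difference 0.55, SE 0.074, adjusted p = 7.7e-04) and the largest origin recognition subunit gene ORC1 read 7.47 and 7.71 in control, 6.07 and 5.75 with Nutlin-3 and 6.73 and 6.47 in shp63 ON (difference 0.69, SE 0.136, adjusted p = 0.0043). All 3 lay below control in both treatments and lower with Nutlin-3. GINS2 (0.61 ± 0.088, SE), the licensing factor gene CDT1 (0.49 ± 0.073), MCM10 (0.37 ± 0.076), MCM3 (0.31 ± 0.063) and CDC45 (0.30 ± 0.070) were also higher. MCM6 (-0.20 ± 0.085) did not pass, so the helicase subunits were not uniform.

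The largest differences in the list went the other way. TYMS, thymidylate synthase, read 9.59 and 9.70 in control, 9.74 and 9.53 with Nutlin-3 and 7.42 and 7.38 in shp63 ON, 4.71-fold lower (difference -2.24, SE 0.085, adjusted p = 4.9e-06). PCNA, the sliding clamp of the polymerases, read 8.46 and 8.45 in control, 8.72 and 8.47 with Nutlin-3 and 7.02 and 6.85 in shp63 ON (difference -1.66, SE 0.097, adjusted p = 2.3e-05). For both genes the Nutlin-3 and control arrays overlapped or nearly so, and the shp63 ON arrays stood apart. RRM1, the large subunit of ribonucleotide reductase, read 9.64 and 9.70 in control, 9.14 and 8.92 with Nutlin-3 and 8.26 and 8.26 in shp63 ON (difference -0.77, SE 0.083, adjusted p = 2.9e-04). It was below control in both treatments, and further below in shp63 ON. FEN1, the flap endonuclease, had close values of 7.22 and 7.24 with Nutlin-3 and 7.18 and 7.24 in shp63 ON (difference -0.020, SE 0.068, adjusted p = 0.83).

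Regulators of entry into S phase were divided too, with 12 of 30 measured members higher (40%), 12 lower (40%) and 6 not passed. Their median difference was 0.038, and -0.042 after cyclic loess. With 1 array left out it ranged from -0.048 to 0.076, below 0 only without the second Nutlin-3 array. Cyclin E2, CCNE2, read 9.54 and 9.56 in control, 5.50 and 5.73 with Nutlin-3 and 7.34 and 7.12 in shp63 ON (difference 1.61, SE 0.102, adjusted p = 3.1e-05). E2F1, an activator of replication genes, read 8.20 and 8.26 in control, 6.58 and 6.51 with Nutlin-3 and 7.76 and 7.76 in shp63 ON (difference 1.21, SE 0.063, adjusted p = 1.5e-05). Both lay furthest below control on the Nutlin-3 arrays. E2F7, a repressor of E2F genes that p53 can induce, read 9.57 and 9.60 in control, 10.51 and 10.38 with Nutlin-3 and 7.87 and 8.07 in shp63 ON (difference -2.47, SE 0.086, adjusted p = 4.9e-06), with Nutlin-3 above control and shp63 ON below it. Cyclin E1, CCNE1, read 6.78 and 6.64 with Nutlin-3 and 6.87 and 6.59 in shp63 ON (difference 0.018, SE 0.099, adjusted p = 0.895), and did not pass.

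Of the D-type cyclins, which drive CDK4 and CDK6, CCND3 was higher and CCND2 lower. CCND3 read 11.34 and 11.35 in control, 11.01 and 10.999 with Nutlin-3 and 12.04 and 11.97 in shp63 ON (difference 1.00, SE 0.062, adjusted p = 2.7e-05), and CCND2 read 11.27 and 11.38 in control, 11.69 and 11.69 with Nutlin-3 and 10.36 and 10.38 in shp63 ON (difference -1.31, SE 0.065, adjusted p = 1.2e-05). The shp63 ON arrays lay above control for CCND3 and below it for CCND2. RBL2, the pocket protein p130 of quiescent cells, read 8.41 and 8.31 in control, 9.43 and 9.31 with Nutlin-3 and 8.06 and 8.09 in shp63 ON (difference -1.29, SE 0.072, adjusted p = 2.0e-05), high with Nutlin-3. The kinase inhibitor genes CDKN1B (p27) and CDKN1C (p57) were higher in shp63 ON, by 0.77 ± 0.089 (SE) and 0.66 ± 0.060, in contrast to CDKN1A. CDKN1B read 8.42 and 8.39 in control, 8.28 and 8.10 with Nutlin-3 and 9.05 and 8.86 in shp63 ON, so it was the shp63 ON arrays that stood apart.

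Genes of mitosis were lower in shp63 ON as a group. Of 44 measured members 34 were lower (77.3%, background 24%), 2 higher and 8 not passed, with a median difference of -0.690. After cyclic loess 35 were lower and 2 higher. The mean level over the list was 7.977 and 8.046 on the control arrays, 7.286 and 7.190 with Nutlin-3 and 6.576 and 6.603 in shp63 ON. Nutlin-3 arrays therefore lay between control and shp63 ON. The treatment times were 12 h and 48 h, and what part of this order follows from time was not tested.

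CDK1, the mitotic kinase, read 7.59 and 7.84 in control, 7.30 and 6.88 with Nutlin-3 and 5.21 and 5.29 in shp63 ON, 3.58-fold lower (difference -1.84, SE 0.140, adjusted p = 6.7e-05). TOP2A, which untangles sister chromatids, read 9.05 and 9.06 in control, 8.78 and 8.54 with Nutlin-3 and 6.93 and 6.91 in shp63 ON (difference -1.74, SE 0.086, adjusted p = 1.2e-05), and the securin gene PTTG1 read 6.63 and 6.66 in control, 6.85 and 6.67 with Nutlin-3 and 5.18 and 5.11 in shp63 ON (difference -1.61, SE 0.078, adjusted p = 1.1e-05). With Nutlin-3, CDK1 and TOP2A were less than 1 log2 unit below control and PTTG1 was not below it. MKI67, the proliferation antigen Ki-67, read 9.52 and 9.70 in control, 8.70 and 8.58 with Nutlin-3 and 7.46 and 7.31 in shp63 ON (difference -1.26, SE 0.090, adjusted p = 5.1e-05). Cyclin B2, CCNB2 (-1.19 ± 0.136, SE), the polo-like kinase gene PLK1 (-0.78 ± 0.094) and the checkpoint kinase gene BUB1B (-0.38 ± 0.089) were lower as well, as were FOXM1 (-0.90 ± 0.065), an activator of mitotic genes, and cyclin A2, CCNA2 (-0.94 ± 0.085). The Aurora kinase genes AURKA (7.92 and 8.05 with Nutlin-3, 7.81 and 7.76 in shp63 ON) and AURKB (8.12 and 7.95 with Nutlin-3 and 7.89 and 7.75 in shp63 ON) did not pass (adjusted p = 0.0885 and 0.0788).

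The 2 members higher in shp63 ON were ANLN and KIF23. ANLN, the actin-binding scaffold anillin of the cleavage furrow, read 11.24 and 11.18 in control, 9.90 and 9.76 with Nutlin-3 and 11.04 and 11.02 in shp63 ON (difference 1.20, SE 0.071, adjusted p = 2.4e-05). KIF23, a motor of the central spindle, read 9.82 and 9.73 in control, 8.66 and 8.66 with Nutlin-3 and 9.10 and 9.22 in shp63 ON (difference 0.50, SE 0.071, adjusted p = 9.7e-04). For ANLN the shp63 ON arrays were close to control and the Nutlin-3 arrays stood apart below. Both promoter windows hold the CHR core.

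**Figure D4:**
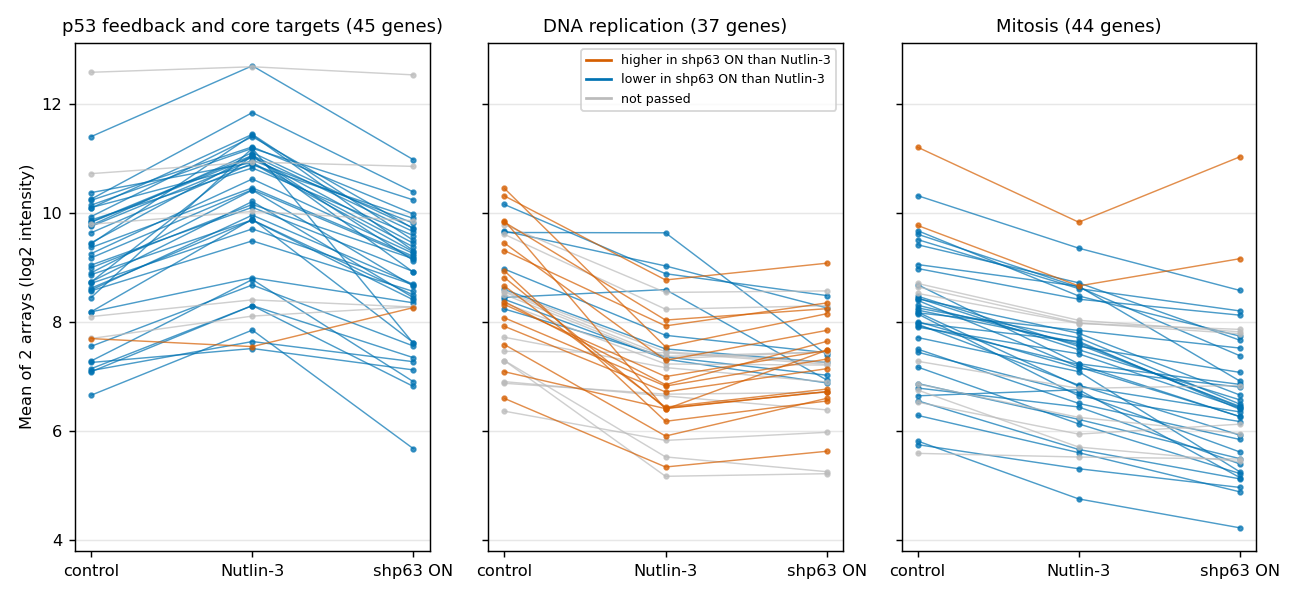
Group means (log2 intensity, mean of 2 arrays) of each measured member of the p53 target, DNA replication and mitosis lists in control, Nutlin-3 and shp63 ON, joined by lines; orange marks members higher in shp63 ON than with Nutlin-3, blue lower and grey not passed. Most p53 targets peak with Nutlin-3, most replication genes lie below control in both treatments, with TYMS and PCNA near control with Nutlin-3, and most mitosis genes step down from control over Nutlin-3 to shp63 ON.

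Replication-dependent histone genes are transcribed in S phase. Of 43 measured members 19 were lower (44.2%), 1 higher and 23 not passed, with a median of -0.217; after cyclic loess 29 were lower, and by analysis of variance 9 were lower. H2BC14 read 10.45 and 10.80 in control, 8.73 and 8.60 with Nutlin-3 and 7.37 and 7.41 in shp63 ON (difference -1.28, SE 0.114, adjusted p = 1.3e-04). H3C11 read 11.09 and 11.27 in control, 10.62 and 10.62 with Nutlin-3 and 9.36 and 9.39 in shp63 ON (difference -1.25, SE 0.076, adjusted p = 2.6e-05), and the linker histone gene H1-5 read 9.82 and 10.13 in control, 8.44 and 8.36 with Nutlin-3 and 7.47 and 7.09 in shp63 ON (difference -1.12, SE 0.142, adjusted p = 5.9e-04). All 3 stepped down from control over Nutlin-3 to shp63 ON. H4C1, the 1 higher member (difference 0.32, SE 0.082, adjusted p = 0.014), was no longer called without the second shp63 ON array. Histone genes are near-identical copies, so single members are uncertain on a probe array.

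Of 15 measured basal keratin and adhesion genes 8 were lower (53.3%) and 2 higher, with a median of -0.335. LAMB3, a chain of the basement membrane laminin, read 11.38 and 11.51 in control, 12.27 and 12.17 with Nutlin-3 and 11.08 and 11.09 in shp63 ON (difference -1.14, SE 0.072, adjusted p = 3.1e-05). CD44, the hyaluronan receptor, read 12.29 and 12.36 in control, 12.82 and 12.77 with Nutlin-3 and 11.59 and 11.76 in shp63 ON (difference -1.12, SE 0.077, adjusted p = 4.4e-05), and ITGB4 read 12.03 and 12.09 in control, 12.19 and 12.20 with Nutlin-3 and 11.32 and 11.29 in shp63 ON (difference -0.89, SE 0.061, adjusted p = 4.4e-05). In all 3 genes Nutlin-3 lay above control and shp63 ON below it. The adhesion genes ITGA3, ITGB1, DST, PLEC and COL7A1 did not pass, with differences from -0.13 to 0.074. The basal keratins were mixed, with KRT5 at -0.42 ± 0.074 (SE) and KRT15 at -0.61 ± 0.063, while the stress keratin KRT16 was higher and read 8.85 and 8.87 in control, 8.50 and 8.33 with Nutlin-3 and 9.16 and 9.33 in shp63 ON (difference 0.83, SE 0.086, adjusted p = 2.4e-04). KRT14 was higher by 0.29 ± 0.078, a call lost without the second Nutlin-3 array or without the first shp63 ON array.

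Of 41 measured genes of squamous terminal differentiation, 21 were higher (51.2%) and 7 lower (17.1%), with a median of 0.285. The number higher was 13 after cyclic loess, with 8 lower, and 11 by analysis of variance. The median level of the list was 6.713, against 7.302 over all genes. Of all 3167 genes at 6 to 7, 1601 were higher and 466 lower, with a median of 0.247. The kallikrein gene KLK10 read 7.86 and 7.91 in control, 7.54 and 7.60 with Nutlin-3 and 8.72 and 8.68 in shp63 ON (difference 1.12, SE 0.063, adjusted p = 2.0e-05). PPL, the cornified envelope protein periplakin, read 8.27 and 8.22 in control, 7.98 and 8.15 with Nutlin-3 and 9.15 and 9.01 in shp63 ON (difference 1.01, SE 0.084, adjusted p = 9.8e-05), and FLG, filaggrin, read 5.32 and 5.53 in control, 5.41 and 5.60 with Nutlin-3 and 6.28 and 6.70 in shp63 ON (difference 0.99, SE 0.142, adjusted p = 0.00102). In these genes Nutlin-3 stayed within 0.4 of control and the shp63 ON arrays were high. The mucosal keratin KRT13 (0.85 ± 0.068, SE) and the transcription factor gene OVOL1 (0.63 ± 0.072) were higher too, while the early suprabasal keratins KRT1 (5.79 and 6.12 with Nutlin-3, 6.08 and 6.08 in shp63 ON) and KRT10 (6.31 and 5.97 with Nutlin-3 and 6.17 and 6.30 in shp63 ON) did not pass.

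The 7 lower members included the widest differences of the list. Besides ABCA12, the repressor gene PRDM1 (BLIMP1) read 7.49 and 7.31 in control, 9.38 and 9.40 with Nutlin-3 and 7.77 and 7.72 in shp63 ON (difference -1.65, SE 0.075, adjusted p = 9.6e-06), the protease inhibitor gene CSTA (cystatin A) read 7.49 and 7.50 in control, 8.30 and 8.14 with Nutlin-3 and 6.67 and 6.61 in shp63 ON (difference -1.58, SE 0.074, adjusted p = 1.0e-05), and ZNF750, a regulator of terminal differentiation, read 5.47 and 5.61 in control, 7.04 and 6.83 with Nutlin-3 and 5.39 and 5.56 in shp63 ON (difference -1.46, SE 0.098, adjusted p = 4.0e-05). The ceramide synthase gene CERS3 differed by -1.01 ± 0.105 (SE). PRDM1, CSTA and ZNF750 were highest with Nutlin-3. In shp63 ON, ZNF750 overlapped control, PRDM1 lay above it and CSTA below it.

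Desmosome and junction genes were divided by family member. Of 21 measured, 11 were higher (52.4%) and 2 lower. The 2 lower members are the basal desmosomal cadherins: DSG3 read 9.03 and 9.12 in control, 11.12 and 11.10 with Nutlin-3 and 8.33 and 8.37 in shp63 ON (difference -2.76, SE 0.064, adjusted p = 1.0e-06), and DSC3 read 8.89 and 8.97 in control, 9.75 and 9.62 with Nutlin-3 and 8.33 and 8.40 in shp63 ON (difference -1.32, SE 0.073, adjusted p = 2.0e-05). DSC2, the broadly expressed desmocollin, was higher, with 10.04 and 10.05 in control, 9.60 and 9.61 with Nutlin-3 and 10.46 and 10.44 in shp63 ON (difference 0.85, SE 0.059, adjusted p = 4.6e-05). The tight junction genes TJP3 (1.19 ± 0.067, SE), CGN (0.89 ± 0.078) and CLDN4 (0.63 ± 0.097) were higher, and the desmosomal anchor gene DSP did not pass, at 12.21 and 12.17 with Nutlin-3 and 12.17 and 12.13 in shp63 ON (difference -0.039, SE 0.062, adjusted p = 0.631).

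Of 19 measured genes of the S100 family, 3 were higher and 4 lower, with a median difference of -0.008. The S100 list also held S100PBP, which encodes a binding protein of S100P and did not pass. Over that list 15% of members were higher and 20% lower, against 27.5% and 24% of all genes. Beside S100A2, its relative S100A3 read 7.07 and 7.38 in control, 9.15 and 8.96 with Nutlin-3 and 6.67 and 6.54 in shp63 ON (difference -2.45, SE 0.114, adjusted p = 1.0e-05), the same order of groups. S100P was higher, with 10.24 and 10.34 in control, 10.33 and 10.53 with Nutlin-3 and 11.16 and 11.40 in shp63 ON (difference 0.85, SE 0.102, adjusted p = 4.6e-04), while S100A9, a calprotectin subunit, did not pass (8.68 and 8.54 with Nutlin-3 and 8.80 and 8.71 in shp63 ON).

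**Figure D5:**
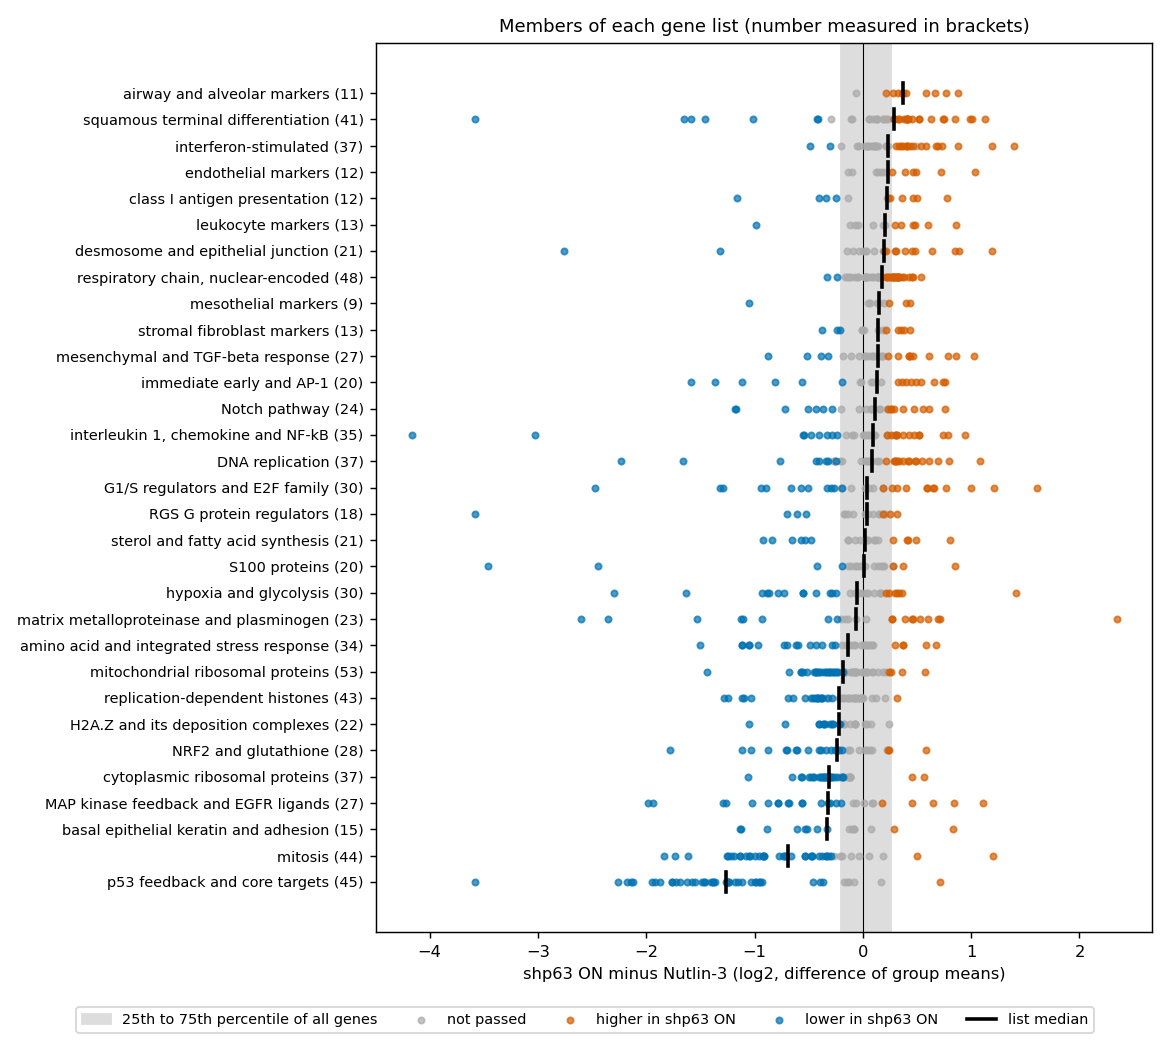
Difference of group means, shp63 ON minus Nutlin-3 (log2), for every measured member of 31 gene lists, ordered by list median (black bar). Points are coloured by call (orange higher, blue lower, grey not passed) and the band spans the 25th to 75th percentile of all genes, -0.205 to 0.260. The p53 target and mitosis lists lie furthest to the left, with medians of -1.267 and -0.690.

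Of 27 measured MAP kinase feedback genes and EGFR ligands 17 were lower (63%) and 5 higher, with a median of -0.325. After cyclic loess 14 were lower and 5 higher, with a median of -0.244. DUSP6, the phosphatase that switches off ERK, read 8.79 and 8.94 in control, 9.47 and 9.36 with Nutlin-3 and 7.46 and 7.40 in shp63 ON (difference -1.99, SE 0.078, adjusted p = 5.0e-06). PHLDA1 read 8.92 and 8.99 in control, 9.99 and 9.98 with Nutlin-3 and 8.06 and 8.03 in shp63 ON (difference -1.94, SE 0.062, adjusted p = 3.5e-06), and the ETS factor gene ETV5 read 7.80 and 8.03 in control, 8.80 and 8.55 with Nutlin-3 and 7.40 and 7.37 in shp63 ON (difference -1.29, SE 0.106, adjusted p = 9.1e-05). Each was above control with Nutlin-3 and below it in shp63 ON. The EGFR ligand gene TGFA (-1.02 ± 0.087, SE) and EGFR itself (-0.56 ± 0.068) were lower, but the receptor gene ERBB3 (difference 1.11, SE 0.067, adjusted p = 2.5e-05) and the EGFR inhibitor gene ERRFI1 (difference 0.84, SE 0.064, adjusted p = 6.7e-05) were higher.

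Immediate early and AP-1 genes, some of which growth factor signals induce within minutes, split into 9 higher (45%) and 6 lower (30%) of 20. FOS read 7.999 and 8.10 in control, 9.36 and 9.37 with Nutlin-3 and 8.04 and 7.95 in shp63 ON (difference -1.37, SE 0.068, adjusted p = 1.3e-05), its relative FOSL1 read 10.25 and 10.34 in control, 11.06 and 11.17 with Nutlin-3 and 9.94 and 10.07 in shp63 ON (difference -1.11, SE 0.077, adjusted p = 4.5e-05) and MYC read 10.85 and 10.89 in control, 10.96 and 10.89 with Nutlin-3 and 9.30 and 9.37 in shp63 ON (difference -1.59, SE 0.065, adjusted p = 6.0e-06). FOS was high with Nutlin-3 and at its control level in shp63 ON, whereas MYC was low in shp63 ON and at its control level with Nutlin-3. The orphan nuclear receptor genes NR4A3 (0.75 ± 0.063, SE) and NR4A1 (0.74 ± 0.077) and the YAP target CCN2 (0.66 ± 0.062) were higher. Among 18 regulators of G protein signalling 4 were lower (22.2%) and 3 higher (16.7%), against 24% and 27.5% of all genes. The number higher was smaller without the second Nutlin-3 array. Outside RGS2 the largest differences were those of RGS20 (difference -0.70, SE 0.103, adjusted p = 0.00111) and RGS16 (difference -0.61, SE 0.070, adjusted p = 3.7e-04).

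Inflammatory genes beyond the 2 interleukin 1 genes went both ways. Of 35 measured genes of the interleukin 1, chemokine and NF-kB list 13 were higher (37.1%) and 9 lower (25.7%), with a median of 0.094 (0.067 to 0.143 with 1 array left out). After cyclic loess 10 were higher and 11 lower, with a median of 0.023. CXCL8, the neutrophil chemokine interleukin 8, read 6.20 and 6.43 in control, 6.49 and 6.40 with Nutlin-3 and 7.58 and 7.21 in shp63 ON (difference 0.95, SE 0.130, adjusted p = 8.3e-04). IL6 read 6.16 and 6.07 in control, 5.59 and 5.75 with Nutlin-3 and 6.39 and 6.52 in shp63 ON (difference 0.79, SE 0.083, adjusted p = 2.6e-04), and TNF read 6.39 and 6.68 in control, 6.22 and 6.50 with Nutlin-3 and 7.11 and 7.08 in shp63 ON (difference 0.74, SE 0.119, adjusted p = 0.00166). These 3 cytokines were higher in shp63 ON at low levels, where the trend with level also ran upward. The NF-kB subunit gene NFKB1 (-0.56 ± 0.069, SE) and its feedback inhibitor gene TNFAIP3 (-0.54 ± 0.062) were lower, while the cyclooxygenase gene PTGS2 (13.06 and 13.12 with Nutlin-3 and 13.16 and 13.16 in shp63 ON) did not pass.

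Interferon-stimulated genes were higher in part. Of 37 measured 16 were higher (43.2%) and 2 lower (5.41%), with a median of 0.234; after cyclic loess 14 were higher and 2 lower, and without the first shp63 ON array the median was 0.152. SAMD9L, an antiviral and antiproliferative gene, read 7.43 and 7.44 in control, 7.43 and 7.51 with Nutlin-3 and 8.96 and 8.77 in shp63 ON (difference 1.40, SE 0.080, adjusted p = 2.1e-05). The guanylate-binding protein gene GBP2 read 6.82 and 6.80 in control, 6.78 and 6.92 with Nutlin-3 and 8.07 and 8.01 in shp63 ON (difference 1.19, SE 0.071, adjusted p = 2.5e-05), and the RNA sensor gene RIGI read 9.05 and 9.09 in control, 8.68 and 8.78 with Nutlin-3 and 9.66 and 9.55 in shp63 ON (difference 0.88, SE 0.070, adjusted p = 8.1e-05). In these 3 genes Nutlin-3 was within 0.4 of control and shp63 ON was above it. MX1, a classical interferon marker, was uneven, at 7.54 and 6.70 on the shp63 ON arrays against 6.39 and 6.47 with Nutlin-3 (difference 0.69, SE 0.228, adjusted p = 0.0366). PARP14 (-0.48 ± 0.066, SE) and OAS3 (-0.30 ± 0.061) were the 2 lower members.

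Of 12 measured genes of class I antigen presentation 6 were higher (50%) and 4 lower (33.3%). The number lower was smaller without the first Nutlin-3 array or without either shp63 ON array. The class I transactivator gene NLRC5 read 7.05 and 7.10 in control, 6.93 and 6.96 with Nutlin-3 and 7.69 and 7.76 in shp63 ON (difference 0.78, SE 0.064, adjusted p = 9.4e-05), and the light chain gene B2M was higher by 0.47 ± 0.071 (SE). The peptide trimming gene ERAP2 was lower, with 7.60 and 7.63 in control, 8.54 and 8.51 with Nutlin-3 and 7.34 and 7.37 in shp63 ON (difference -1.17, SE 0.060, adjusted p = 1.5e-05), as was the peptide transporter gene TAP1 (-0.41 ± 0.074). ERAP2 and TAP1 were both highest with Nutlin-3.

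Matrix proteases and their regulators went both ways, with 10 of 23 higher (43.5%) and 8 lower (34.8%). After cyclic loess 7 were higher and 10 lower. The collagenases were opposed: MMP1 read 7.18 and 7.37 in control, 9.01 and 8.82 with Nutlin-3 and 6.24 and 6.38 in shp63 ON, whereas MMP13, given above, was high in shp63 ON. The membrane-bound protease gene MMP14 (-1.10 ± 0.068, SE), the protease inhibitor gene SERPINE2 (-2.36 ± 0.090) and the tissue plasminogen activator gene PLAT (-1.53 ± 0.101) were lower, and the urokinase receptor gene PLAUR (0.71 ± 0.086) was higher. SERPINE2 read 7.47 and 7.62 in control, 9.03 and 8.89 with Nutlin-3 and 6.69 and 6.52 in shp63 ON, on opposite sides of control.

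Of 27 mesenchymal and TGF-beta response genes 10 were higher (37%) and 4 lower (14.8%). The contractile genes ACTA2, smooth muscle actin, and CNN1, calponin, were higher: ACTA2 read 11.26 and 11.23 in control, 10.89 and 10.80 with Nutlin-3 and 11.95 and 11.79 in shp63 ON (difference 1.02, SE 0.077, adjusted p = 6.2e-05), and CNN1 read 9.56 and 9.56 in control, 8.91 and 8.84 with Nutlin-3 and 9.68 and 9.65 in shp63 ON (difference 0.79, SE 0.063, adjusted p = 8.1e-05). For CNN1 the shp63 ON arrays were near control and Nutlin-3 was low. TGFB2 (0.86 ± 0.063, SE) and N-cadherin, CDH2 (0.61 ± 0.061), were higher, and SNAI2, the transcription factor Slug of basal cells, was lower, with 11.96 and 11.95 in control, 12.30 and 12.29 with Nutlin-3 and 11.41 and 11.44 in shp63 ON (difference -0.87, SE 0.060, adjusted p = 4.3e-05).

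In the Notch pathway 9 of 24 genes were higher (37.5%) and 7 lower (29.2%), against 7 higher and 8 lower after cyclic loess. The receptor gene NOTCH1 read 8.30 and 8.39 in control, 9.23 and 9.14 with Nutlin-3 and 8.02 and 7.98 in shp63 ON (difference -1.18, SE 0.067, adjusted p = 2.1e-05), and its ligand gene JAG1 read 9.40 and 9.34 in control, 9.73 and 9.85 with Nutlin-3 and 8.56 and 8.67 in shp63 ON (difference -1.18, SE 0.074, adjusted p = 3.0e-05). Both stood above control with Nutlin-3 and below it in shp63 ON. Of the targets, HES1 was lower (-0.50 ± 0.074, SE) and HES4 higher (0.75 ± 0.074).

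Ribosomal protein genes were more often lower than higher in shp63 ON. Of 37 cytoplasmic ribosomal protein genes 26 were lower (70.3%) and 2 higher, with a median of -0.313 and 2 members lower by at least 1.5-fold. RPS24 read 9.05 and 9.18 in control, 9.53 and 9.35 with Nutlin-3 and 8.40 and 8.37 in shp63 ON (difference -1.06, SE 0.081, adjusted p = 7.0e-05), and RPL23 read 8.74 and 8.75 in control, 8.88 and 8.73 with Nutlin-3 and 8.19 and 8.12 in shp63 ON (difference -0.65, SE 0.072, adjusted p = 3.2e-04). RPL19 was higher by 0.57 ± 0.062 (SE). RPS28 was called higher by 0.45 ± 0.085, but its probe sets ranged from -0.17 to 0.45 and their mean was not called (adjusted p = 0.728). Ribosomal protein genes have many near-identical pseudogenes, so single members are uncertain. Of 53 mitochondrial ribosomal protein genes 24 were lower (45.3%) and 4 higher, the latter 2 without the second Nutlin-3 array or without either shp63 ON array. Cyclic loess left 16 mitochondrial members lower and 7 higher, with a median of -0.085 against -0.183 before it. The median level of the mitochondrial list was 9.273, and of all 2093 genes at 9 to 10, 864 were lower. MRPL39 was the lowest, with 10.09 and 10.11 in control, 11.21 and 11.06 with Nutlin-3 and 9.82 and 9.56 in shp63 ON (difference -1.44, SE 0.097, adjusted p = 4.1e-05).

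Nuclear-encoded genes of the respiratory chain were higher in 22 of 48 (45.8%) and lower in 2, with a median of 0.177, none by 1.5-fold. After cyclic loess 28 were higher and 3 lower. The ATP synthase genes ATP5F1D, with 9.79 and 9.74 with Nutlin-3 and 10.32 and 10.28 in shp63 ON (difference 0.54, SE 0.083, adjusted p = 0.00139), and ATP5PO, with 9.68 and 9.74 with Nutlin-3 and 10.15 and 10.19 in shp63 ON (difference 0.46, SE 0.062, adjusted p = 7.7e-04), led the list. The 2 lower members, SDHA (-0.33 ± 0.087, SE) and NDUFB6 (-0.24 ± 0.064), both lost their call without the first Nutlin-3 array. SDHA also lost it without the second shp63 ON array and NDUFB6 without the first.

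Stress and redox genes were lower in part. Of 28 NRF2 and glutathione genes 16 were lower (57.1%) and 3 higher, with a median of -0.243. After cyclic loess 13 were lower and 3 higher, with a median of -0.211. The conjugate export pump gene ABCC2 read 6.55 and 6.70 in control, 8.67 and 8.68 with Nutlin-3 and 6.82 and 6.98 in shp63 ON (difference -1.78, SE 0.082, adjusted p = 9.7e-06), and the cystine transporter gene SLC7A11 read 10.42 and 10.49 in control, 10.84 and 10.83 with Nutlin-3 and 9.68 and 9.76 in shp63 ON (difference -1.12, SE 0.065, adjusted p = 2.3e-05). Both were highest with Nutlin-3, and SLC7A11 was also below control in shp63 ON. Glutathione peroxidase 2, GPX2, was lower through the shp63 ON arrays, with 7.51 and 7.44 with Nutlin-3 and 6.52 and 6.37 in shp63 ON (difference -1.03, SE 0.103, adjusted p = 2.1e-04). NQO1, a standard NRF2 target, differed by -0.39 ± 0.078 (SE).

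Of 34 genes of amino acid supply and the integrated stress response 15 were lower (44.1%) and 5 higher. The number higher was smaller without the second Nutlin-3 or the first shp63 ON array. The median level of the list was 9.314, and of all 2093 genes at 9 to 10, 864 were lower. After cyclic loess 15 members were lower and 4 higher. NUPR1, a stress-induced chromatin factor, read 8.997 and 8.96 in control, 10.81 and 10.76 with Nutlin-3 and 9.36 and 9.21 in shp63 ON (difference -1.50, SE 0.072, adjusted p = 1.1e-05). The central factors ATF4 (10.71 and 10.69 with Nutlin-3, 10.64 and 10.55 in shp63 ON) and DDIT3 (7.90 and 7.92 with Nutlin-3 and 8.09 and 7.90 in shp63 ON) did not pass. Of 30 hypoxia and glycolysis genes 13 were lower (43.3%) and 7 higher. The number higher was again smaller without the second Nutlin-3 or the first shp63 ON array. The median level of this list was 9.184, in the same range of 9 to 10. After cyclic loess 12 members were lower and 10 higher. STC1, stanniocalcin, read 6.93 and 7.15 in control, 9.13 and 9.21 with Nutlin-3 and 6.87 and 6.86 in shp63 ON (difference -2.30, SE 0.084, adjusted p = 4.9e-06), and the angiogenic factor gene VEGFA read 10.22 and 10.17 in control, 10.87 and 10.86 with Nutlin-3 and 9.997 and 10.01 in shp63 ON (difference -0.86, SE 0.061, adjusted p = 4.7e-05). Both peaked with Nutlin-3. The glucose transporter gene SLC2A3 was opposite, with 9.14 and 8.97 in control, 8.57 and 8.48 with Nutlin-3 and 10.04 and 9.84 in shp63 ON (difference 1.42, SE 0.093, adjusted p = 3.6e-05).

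Of 21 sterol and fatty acid genes 6 were lower (28.6%) and 5 higher (23.8%). The number higher was smaller without the first shp63 ON array and was 8 after cyclic loess. The desaturase gene FADS1 read 10.35 and 10.17 with Nutlin-3 and 9.46 and 9.21 in shp63 ON (difference -0.92, SE 0.099, adjusted p = 2.8e-04) and the lipogenic regulator gene SREBF1 read 7.90 and 7.87 with Nutlin-3 and 8.75 and 8.62 in shp63 ON (difference 0.80, SE 0.072, adjusted p = 1.3e-04), in opposite directions. Of 22 genes of the histone variant H2A.Z and its deposition complexes 12 were lower (54.5%), against 7 after cyclic loess, and 10 did not pass. The helicase gene RUVBL1 read 9.28 and 9.30 in control, 9.49 and 9.41 with Nutlin-3 and 8.41 and 8.39 in shp63 ON (difference -1.05, SE 0.063, adjusted p = 2.5e-05), while H2AZ1 itself did not pass (9.12 and 8.84 with Nutlin-3 and 8.91 and 8.82 in shp63 ON, adjusted p = 0.35).

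Leukocyte, endothelial, fibroblast and airway markers were mostly dim. The mean level of 13 leukocyte markers was 6.301 and 6.235 with Nutlin-3 and 6.440 and 6.450 in shp63 ON, with 6 higher and 1 lower (4 and 3 after cyclic loess). That of 12 endothelial markers was 5.728 and 5.749 against 6.075 and 6.024, with 6 higher and 6 not passed (5 higher after cyclic loess), and that of 13 fibroblast markers 6.043 and 6.049 against 6.149 and 6.126, with 5 higher and 3 lower (1 and 3 after cyclic loess). The fibroblast count higher was 2 without the first array of either group and 3 without the second shp63 ON array, and the count lower was 1 without the first Nutlin-3 array and 0 without the first shp63 ON array. The endothelial cadherin gene CDH5 was higher, with 8.58 and 8.52 in control, 8.10 and 8.07 with Nutlin-3 and 9.21 and 9.03 in shp63 ON (difference 1.03, SE 0.076, adjusted p = 5.8e-05), while PECAM1, a defining endothelial marker, read 4.84 to 5.22 over the 6 arrays. For 11 airway and alveolar markers the mean was 6.169 and 6.212 against 6.666 and 6.584, with 10 higher and 1 not passed, but 4 higher after cyclic loess. The secretory gene SCGB3A1 (6.996 and 7.17 with Nutlin-3, 7.97 and 7.96 in shp63 ON) and the lung lineage factor gene NKX2-1 (5.90 and 5.78 with Nutlin-3 and 6.68 and 6.54 in shp63 ON) were among them. The mean levels of these 4 lists lie where the trend with level ran upward, as does that of the squamous differentiation list. The NRF2, MAP kinase, H2A.Z, mitochondrial ribosomal, integrated stress and hypoxia lists, with median levels of 8.886 to 9.314, lie where it ran downward. The part of the trend in the counts of all these lists was not tested. Of 9 mesothelial markers 3 were higher and 1, BNC1, was lower (difference -1.05, SE 0.063, adjusted p = 2.5e-05), while the keratins KRT7 (12.92 and 12.90 with Nutlin-3 and 13.02 and 12.93 in shp63 ON) and KRT18 (13.14 and 13.16 with Nutlin-3 and 13.22 and 13.16 in shp63 ON) did not pass.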

How the data were processed

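The authors deposited log2 intensities of 32321 probe sets from 6 Affymetrix HuGene 1.0 ST arrays, 2 per group. That these are on a log2 scale is inferred from their range, 2.94 to 14.9. The submitters' processing notes name Partek with no version, and the design text names a one-way analysis of variance. How background was corrected, arrays normalized and probes summarised is not given in the sources used here. Probe sets naming 1 gene (19158; 1388 name several and 11775 none) gave 18404 genes, each by its probe set with the highest mean. No dim genes were removed. Differences were estimated with limma 3.58.1 (R 4.3.3) from the 6 arrays together, using a separate mean for each group, with 3 residual degrees of freedom before moderation. The median SE was 0.076.

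Gene lists (32) and the comparison were chosen with earlier results of these data known. Named genes are ANKRD22, RGS2, S100A2, CDKN1A, MDM2, TP73, the 15 largest called differences per direction without overlap, passing over small RNA and unsettled symbols, and 3 called members per list and direction; further members were chosen by role after their values were seen. The gene targeted by the shRNA, some list members and the 13 mitochondrially encoded respiratory genes were not analysed here, and 1 of the 15 lowest genes is not reported here. Alternatives numbered 16: other normalizations, filters, probe set rules and tests, a replicate block, fewer arrays, and each array left out. Deviations of same-numbered arrays from their group means correlated at -0.062 to 0.107, so the numbers were not taken as pairs.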

Additional observations from a re-analysis of the deposited data

How the results depend on the processing

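Against 9481 genes called, of which 5057 were higher and 4424 lower, the alternatives gave 8918 with the 4 treated arrays alone, 9405 with a replicate block, 8369 after quantile normalization, 8292 after cyclic loess, 9444 after median centring, 9453 with the mean of probe sets, 9847 with a trended, robust fit and 8485 with genes of a mean level of at least 6. Leaving out 1 array gave 7356 to 8918. Analysis of variance without moderation gave 6089 called and 3019 higher. It also gave fewer members higher among squamous differentiation (11, and 13 after cyclic loess, against 21), interferon-stimulated (9 against 16) and respiratory chain genes (13 against 22), and fewer lower among NRF2 genes (10 against 16). TP73 turned to -0.047 after cyclic loess and -0.012 after median centring, neither called, and RGS3 turned from 0.18 to -0.013 after cyclic loess. RGS3 was also the 1 named gene that lost its call with the replicate block. The cause of these changes was not tested. Over named genes and settings, 2846 values kept direction and call, 118 lost the call and 3 reversed; 917 list counts stayed within 1.5 times and 75 did not. Precision is limited by 2 arrays per group and by signal near background for dim genes.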
